A study of Homo sapiens with 12 samples.

Results

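The comparison described here set the aggregation cells of U87, an established human glioblastoma cell line, against U87 control cells across all expressed genes. It used 6 of the 12 mRNA-seq libraries of the series, 3 of control cells and 3 of aggregation cells, and no U118 library. Control cells carry the label sensitive and aggregation cells the label resistant. Of the 58174 gene identifiers in the U87 table, 13845 were listed at 1 TPM or more in 3 or more of these libraries and were tested. The control group was U87 cells sorted as CD133-CD15- and grown with serum and BMP2, and the aggregation group came from the same sorted population kept under temozolomide (TMZ) at 50 μM. TMZ is an alkylating drug that adds methyl groups to DNA. The cells that survived it were enlarged and did not divide. The study reported that a subset later returned to the cell cycle and formed a small number of aggregations, which were collected. The group thus descends from few aggregations of 1 line. No label says whether the 3 libraries of a group came from separate cultures, so the p-values measure the spread between these libraries, which may be technical.

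The values were TPM, an abundance per transcript length whose sum is the same in each library. Read counts cannot be read from TPM, and the depth of the libraries is therefore unknown. Markers of the line were at high or moderate levels in all 6 libraries: VIM ran from 4641 to 5910.4 TPM and CD44 from 311 to 480.1 TPM. SOX2 was listed at 0 in all 6 libraries, S100B in 5 of them, and GFAP did not pass 0.693 TPM.

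Cells damaged by an alkylating drug can halt through p53 and CDKN1A (p21), an inhibitor of cyclin-dependent kinases, and arrested cells are known to secrete cytokines, proteases and matrix. Genes of cell division are switched on together late in the cycle and are low in cells that do not divide. Genes that lie next to each other on a chromosome share its copy number and much of its chromatin, so a change carried by a stretch of chromosome shows as neighbours that move together.

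In aggregation cells 419 genes were called higher, 3.03% of those tested, and 1078 were called lower, 7.79%. A call required an adjusted p under 0.05 (limma on log2(TPM + 1), Benjamini-Hochberg over all 13845 genes) and a change of 1 or more on the log2 scale in either direction. The groups did not overlap for 1492 of the 1497 called genes, which the choice of genes by p and size of change nearly required. Over all tested genes the median log2 fold change was -0.24. The mitochondrial genome accounted for 12.9% to 16.9% of control TPM and 22.2% to 23.7% of aggregation TPM. With libraries rescaled by median ratios, the median moved to -0.0018, 685 genes were called higher (4.95%) and 526 lower (3.80%), and the share of higher calls rose from 28.0% to 56.6%. Counts below are from TPM as deposited, with a list's count after this rescaling beside them where it differs, and medians of lists are given relative to the all-gene median. Control library 2 stood apart. In it 456 genes lay more than 1 on the log2 scale from both other control libraries on the same side, against 64 to 112 in each of the other 5 libraries.

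Ranked by size of change, the called genes at 10 TPM or more in the higher group gave 20 rises and 20 falls, and all 40 were called under every alternative in which they were tested. The rises included protein-coding genes of varied kinds, long non-coding RNAs and pseudogenes. KEL, the Kell blood group endopeptidase, was at 0, 0.248 and 0 TPM in the control libraries and 17.6, 19.7 and 16.3 TPM in the aggregation libraries. CHI3L2, a secreted chitinase-like protein, was at 0.147, 0.138 and 0.435 TPM and then 18.3, 19.3 and 18.4 TPM. PI3 (elafin), a secreted elastase inhibitor, went from 0.334, 0 and 0 TPM to 13.6, 15.7 and 12.3 TPM. In each of these genes every aggregation library was above every control library, which the choice of genes required. The highest control value was 0.435 TPM, so these genes passed the filter only through aggregation libraries. LRRC15, a membrane protein of mesenchymal cells, had a log2 fold change of 3.17 ± 0.13 (SE) with an adjusted p of 3.02e-05 (limma), and PDZRN3, a ubiquitin ligase, of 3.66 ± 0.22 with 9.43e-05. Both lie on chromosome 3, where 91.9% of tested genes had a log2 fold change below 0.

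The falls were of genes with varied roles. TRIB3, a pseudokinase induced by amino acid stress, was at 16.1, 14.1 and 15.4 TPM in the control libraries and 0.637, 1.04 and 0.826 TPM in the aggregation libraries, a log2 fold change of -3.15 ± 0.15 (adjusted p = 5.66e-05, limma). No aggregation library came near a control library, though groups apart were required by the choice of genes. LCP1 (L-plastin), an actin-bundling protein best known in leukocytes, was at 100.5, 130.0 and 139 TPM in control and 17.6, 15.9 and 18.2 TPM in aggregation libraries. KRT80, a keratin, fell from 72 ± 17.2 to 9.02 ± 0.06 TPM (mean ± SD, n = 3 each), with 84.7, 79 and 52.5 TPM in the single control libraries. The aggregation libraries of KRT80 hardly differed from each other. TSPAN15, a tetraspanin that partners the protease ADAM10, fell from 15 ± 1.39 to 1.1 ± 0.0828 TPM, and RTN1, a reticulon of the endoplasmic reticulum, from 19.96 ± 1.52 to 1.77 ± 0.479 TPM. UBA7, the activating enzyme for the ubiquitin-like protein ISG15, fell from 14.7 ± 1.44 to 1.75 ± 0.356 TPM. For KATNBL1, a regulator of the microtubule-severing enzyme katanin, the control libraries were spread over 46.3, 119.7 and 62.8 TPM and the aggregation libraries over 9.63, 6.6 and 8.03 TPM. Control library 2 was the highest of the 3 for KATNBL1, as it was for MYEF2 (7.92, 16.6 and 11.4 TPM) and LBR (31.2, 63.9 and 35.7 TPM).

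**Figure D1:**
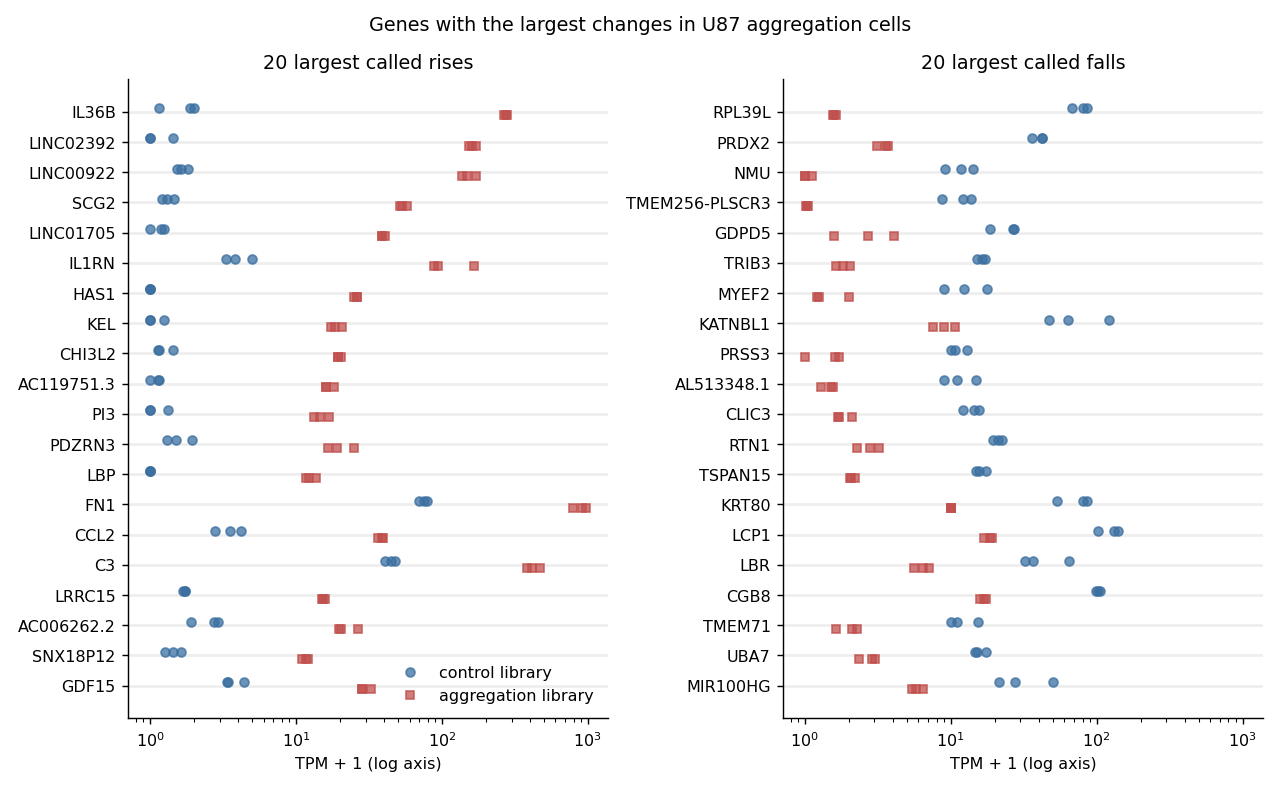
TPM + 1 on a log axis in each U87 library for the 20 genes with the largest called rises (left) and the 20 with the largest called falls (right), among genes at 10 TPM or more in the higher group. Circles are the 3 control libraries and squares the 3 aggregation libraries. The groups do not overlap in any of the 40 genes, which the choice of genes required.

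Only 6 genes were listed at 5 TPM or more in all 3 libraries of one group and at 0.1 TPM or less in all 3 of the other. 5 of them were high in aggregation cells. ST6GALNAC3, a sialyltransferase, was listed at 0 in the 3 control libraries and at 7.58, 7.55 and 7.58 TPM in the aggregation libraries, and PDPN (podoplanin), a mucin-like surface glycoprotein, was listed at 0 and at 5.32, 6.52 and 8.95 TPM. HAS1 and LBP were also at 0 in every control library, with 24.2, 25.1 and 25.1 TPM and 10.8, 12.8 and 11.2 TPM in aggregation. The antisense RNA IGFL2-AS1 went from 0, 0.063 and 0.0982 TPM to 9.59, 5.67 and 6.05 TPM, and without a stated strand setting its reads cannot be told apart from those of its partner gene. The read-through gene TMEM256-PLSCR3, which shares exons with TMEM256 and PLSCR3, was the 1 gene low in aggregation, at 11, 12.9 and 7.71 TPM in control and 0.02, 0.051 and 0.038 TPM in aggregation libraries.

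**Figure D2:**
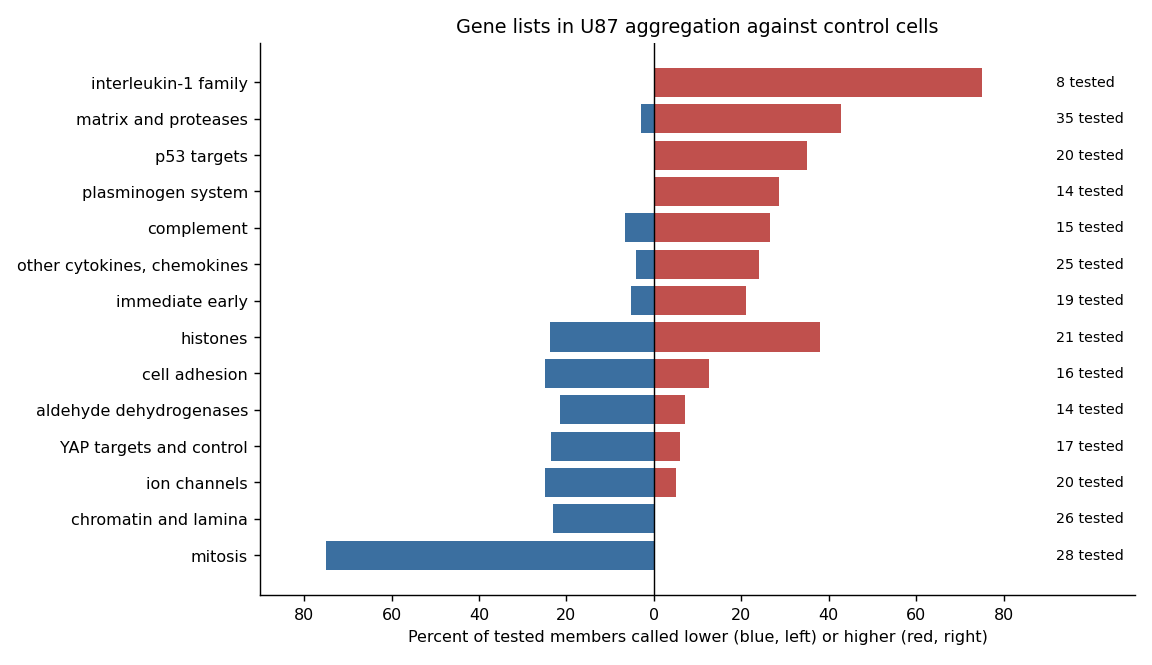
Percent of the tested members of 14 gene lists called higher (right, red) or lower (left, blue) in U87 aggregation cells, with the number tested beside each bar. The mitosis list reaches 75% on the lower side and the interleukin-1 family 75% on the higher side, where 4 of the 6 called members had no control library at 1 TPM and so passed the filter only through aggregation libraries.

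Genes of mitosis fell together. Of 28 genes of mitosis, all tested, 21 were called lower and 0 higher, with a median of -1.09 against all genes. After median-ratio scaling 15 were called lower, and leaving out 1 library at a time gave 18 to 27. Among kinases and regulators 11 of 14 fell. CCNB2 (cyclin B2), a partner of CDK1, was at 176, 197 and 202 TPM in control libraries and 47.6, 50.01 and 54.8 TPM in aggregation libraries, with a log2 fold change of -1.90 ± 0.090 (adjusted p = 5.66e-05, limma). CDC20, an activator of the anaphase-promoting complex, was at 464, 438 and 441 TPM and 159, 157 and 158 TPM, with libraries of a group close to each other. Among kinetochore and spindle genes 10 of 14 fell. CENPA, the histone H3 variant of centromeres, was at 60.1, 80.9 and 64.7 TPM in control and 13.6, 16 and 15 TPM in aggregation libraries. ASPM, a spindle pole protein, was at 8.25, 39.5 and 12.7 TPM and 2.33, 2.62 and 2.72 TPM. For ASPM control library 2 stood well above the other two, and the groups still did not overlap. The 7 members that were not called had log2 fold changes of -0.71 for TOP2A (topoisomerase II alpha) to -1.18 for FOXM1 (a transcription factor of late cycle genes, adjusted p = 0.0886, limma). The separate list of DNA replication genes had 2 of 18 called lower (0 after median-ratio scaling), with a median of -0.27 against all genes. In bulk RNA fewer dividing cells and less of these RNAs per cell cannot be told apart.

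The upstream sequences of the 3 mitosis genes with the largest falls are shown because cell cycle genes are known to share CCAAT boxes and a short element near the start. They are the 250 bases before the RefSeq start on build GRCh38.p14, 5′ to 3′ on the gene's strand, with CCAAT or its reverse complement ATTGG, and TTTGAA or its reverse complement TTCAAA, in capitals.
CCNB2, chr15:59104896-59105145, plus strand: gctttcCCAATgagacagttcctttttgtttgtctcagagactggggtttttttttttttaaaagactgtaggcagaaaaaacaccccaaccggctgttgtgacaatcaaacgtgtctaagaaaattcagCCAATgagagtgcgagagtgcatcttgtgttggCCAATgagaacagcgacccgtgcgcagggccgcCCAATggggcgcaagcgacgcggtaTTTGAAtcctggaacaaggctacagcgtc
CENPA, chr2:26785806-26786055, plus strand: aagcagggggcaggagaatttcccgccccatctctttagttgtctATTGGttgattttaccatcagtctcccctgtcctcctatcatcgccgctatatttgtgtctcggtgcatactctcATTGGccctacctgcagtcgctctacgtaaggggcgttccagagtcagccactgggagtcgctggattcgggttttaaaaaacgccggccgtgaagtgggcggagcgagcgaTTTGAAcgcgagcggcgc
ASPM, chr1:197146670-197146919, minus strand: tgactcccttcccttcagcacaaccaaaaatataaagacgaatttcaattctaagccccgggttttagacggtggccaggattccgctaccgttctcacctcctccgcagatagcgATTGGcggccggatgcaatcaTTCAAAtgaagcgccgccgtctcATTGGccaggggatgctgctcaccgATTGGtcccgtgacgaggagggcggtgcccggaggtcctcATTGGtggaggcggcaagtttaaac
CCAAT was found on either strand in 22 of 29 such windows of 23 mitosis genes (75.9%) and TTTGAA in 13 (44.8%), with 12 windows holding both (41.4%). Among all 35116 windows of that length given by RefSeq, CCAAT was in 32.0%, TTTGAA in 13.3% and both in 4.69%. The remaining 5 genes of the list were not in that table. These letters are a description of the windows and do not show that a factor bound them. They were counted anywhere in a window, and the TTCAAA of ASPM lies near the middle of its window. The TTTGAA share is therefore not a share of elements near the start.

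Of 20 p53 targets, all tested, 7 were called higher and 0 lower, with a median of 1.19 above all genes, and median-ratio scaling gave 12 higher. CDKN1A was at 125, 117 and 117 TPM in control and 804, 642 and 838 TPM in aggregation libraries, a log2 fold change of 2.65 ± 0.11 (adjusted p = 3.02e-05, limma). GDF15, a secreted stress cytokine, was at 3.37, 2.35 and 2.44 TPM and 27.4, 31.4 and 27.3 TPM. TP53INP1, a nuclear protein that promotes p53 activity and autophagy, was at 0.845, 1.63 and 1.11 TPM and 6.52, 6.11 and 6.72 TPM. In all 3 genes the groups were far apart. XPC, a damage recognition factor of nucleotide excision repair, had a log2 fold change of -0.33 (adjusted p = 0.126, limma) and BAX, an apoptosis effector, of -0.10 (adjusted p = 0.295), and neither was called. MDM2, the ubiquitin ligase of p53, had 1.40 ± 0.50 but an adjusted p of 0.0641 (limma), with 5.29, 22.8 and 5.54 TPM in the control libraries and control library 2 the highest.

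Histone genes split by kind. Of 13 tested replication-dependent core and linker histones, 8 were called higher and 1 lower. Of 8 tested genes listed as histone variants 0 were called higher and 4 lower. HIST2H2BE, a core histone H2B, was at 1.01, 1.32 and 1.02 TPM in control and 14.1, 15.3 and 15.8 TPM in aggregation libraries, a log2 fold change of 2.92 ± 0.14 (adjusted p = 5.66e-05, limma). HIST1H2AC, a core H2A, was at 1.21, 1.26 and 1.66 TPM and 15.7, 13 and 14.4 TPM, and HIST1H1C (linker histone H1.2) at 10.1, 11.4 and 9.28 TPM and 50.1, 53.1 and 53.6 TPM. HIST1H4H, a core H4, rose from 0.546 ± 0.253 to 6.55 ± 1.18 TPM. No control library of HIST1H4H reached 1 TPM, so it passed the filter only through aggregation libraries. The values of the groups did not overlap in any of these histones. All 8 were also called after median-ratio scaling, and 8 of the list were called with each library left out in turn. Among the variants H2AFZ (H2A.Z) was at 761, 922 and 808 TPM in control and 308, 325 and 310.2 TPM in aggregation libraries, H3F3A (H3.3) at 372, 430.2 and 411 TPM and 166, 166 and 185 TPM, and H2AFX (H2A.X, phosphorylated at DNA breaks) at 184, 174 and 175 TPM and 75, 80.2 and 76.5 TPM. After median-ratio scaling 1 of the 4, H2AFZ, was still called. Replication-dependent histone mRNAs mostly end without a poly-A tail, and these libraries selected mRNA by it, so their values count the tailed forms. The members of a histone class are near-identical in their coding parts, and how shared reads were assigned is not given in the sources used here. The genes beside HIST1H2AC on chromosome 6 were also higher as a group, with a median of 0.36 against all genes over the 50 nearest tested genes.

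**Figure D3:**
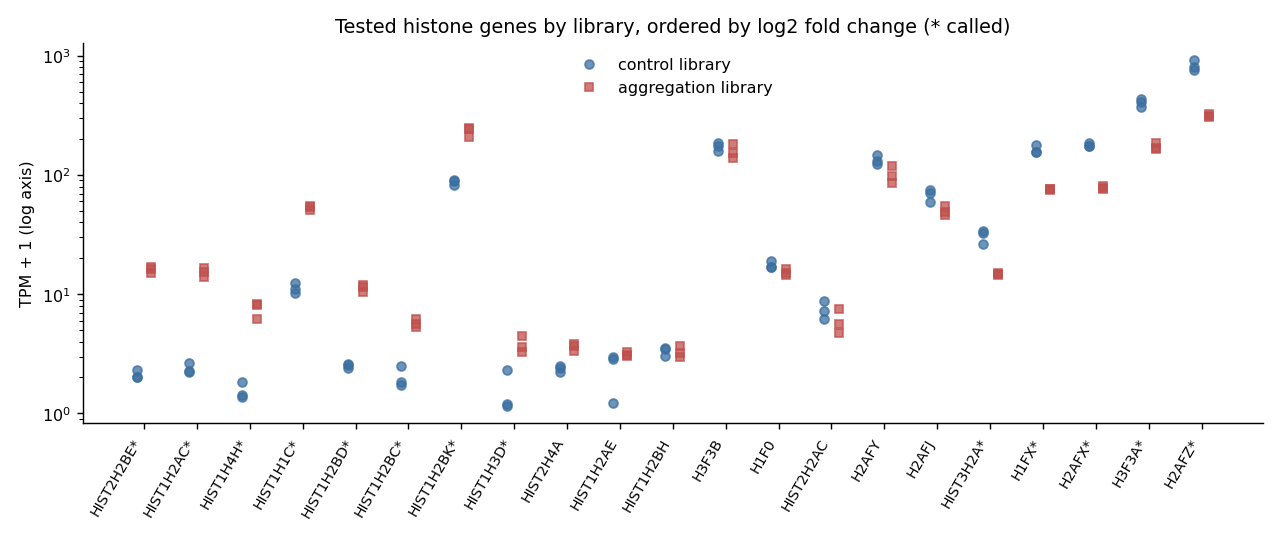
TPM + 1 on a log axis in each library for the 21 tested histone genes, ordered from the largest rise to the largest fall in aggregation cells. Circles are control libraries, squares are aggregation libraries, and stars mark called genes. The 8 called rises are all replication-dependent histones, and 4 of the 5 called falls are variants.

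Genes of the interleukin-1 family, cytokines that start inflammation, were mostly higher. Of 17 genes 8 passed the filter on low values, and 6 of these were called higher. The members called were 4 ligands or secreted antagonists on chromosome 2 (IL36B, IL1B, IL1RN and IL36RN), the receptor IL1R1 on the same chromosome, and the alarmin IL33 on chromosome 9. IL1B, a fever-inducing ligand, was listed at 0 in the 3 control libraries and at 2.96, 2.58 and 2.84 TPM in aggregation libraries. IL36RN, the antagonist of the IL-36 receptor, was at 0, 0 and 0.0377 TPM and 3.05, 1.9 and 2.16 TPM. IL1RN, the antagonist of IL1R1, was at 2.33, 2.8 and 3.97 TPM and 93.2, 165 and 87.3 TPM, with aggregation library 2 above the other 2. IL1R1 was at 4.5, 6.67 and 5.2 TPM in control and 14.9, 15.7 and 16.3 TPM in aggregation libraries. On the TPM scale the antagonist IL1RN was above the ligand IL1B in every aggregation library. The co-receptor IL1RAP (-0.23, adjusted p = 0.514) and IL18BP, which binds IL-18 (-0.07, adjusted p = 0.808), were not called, and IL1RL2, the receptor of the IL-36 ligands, did not pass the filter on low values. Members that passed only through the group in which they were high, such as IL1B, had to differ, so the share of this list is not set against the background.

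Of 25 tested members of the other cytokines, 6 were called higher and 1 lower, and 9 and 1 after median-ratio scaling. Of these, 5 of 9 tested chemokines rose (6 after that scaling), and for 2 of the 5 no control library reached 1 TPM. CCL2, which attracts monocytes, was at 1.8, 3.23 and 2.52 TPM in control and 38.3, 35.3 and 37.9 TPM in aggregation libraries, and CCL3 at 8.06, 7.98 and 9 TPM and 34.5, 28.9 and 27.6 TPM. CSF3 (G-CSF), which drives neutrophil production, was at 12.5, 8.25 and 10.9 TPM and 38.9, 25.1 and 43.1 TPM. IL24, an IL-10 family cytokine, went the other way, at 6.07, 11.6 and 6.66 TPM in control and 1.93, 1.33 and 2.24 TPM in aggregation libraries, with a log2 fold change of -1.65 ± 0.26 (adjusted p = 0.00304, limma).

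Of 15 tested complement genes 4 were called higher and 1 lower, and 7 and 1 after median-ratio scaling. For 2 of the 4 rises no control library reached 1 TPM, and for the fall no aggregation library did, so these 3 genes passed the filter through 1 group. C3, the central component, was at 47, 39.97 and 43.5 TPM in control and 471, 411 and 385 TPM in aggregation libraries. SERPING1, the C1 inhibitor and a regulator that restrains the cascade, rose from 0.208 ± 0.158 to 2.67 ± 0.385 TPM. C2, of the classical pathway, fell from 3.78 ± 0.288 to 0.433 ± 0.0728 TPM. Of 14 tested genes of the plasminogen and coagulation system 4 were called higher and 0 lower. PLAU (urokinase) was at 399, 377 and 376 TPM in control and 752, 819 and 889 TPM in aggregation libraries. Inhibitors rose beside it: TFPI2, an inhibitor of plasmin and other serine proteases, was at 22.3, 30.2 and 24 TPM and 143, 140.1 and 154 TPM, and SERPINE2, which inhibits thrombin and urokinase, at 66.1, 57.7 and 63.8 TPM and 209, 166 and 169 TPM. The urokinase receptor PLAUR had a log2 fold change of 0.09 ± 0.069 (adjusted p = 0.334).

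Of 35 tested matrix genes and proteases 15 were called higher and 1 lower, and 18 and 0 after median-ratio scaling. For 5 of the 15 rises, MFAP5 and POSTN among them, no control library reached 1 TPM, so they passed the filter only through aggregation libraries. Beyond fibronectin, the rises held the microfibril proteins FBN1, at 14.7, 22.9 and 19.98 TPM in control and 58.2, 45.5 and 51.7 TPM in aggregation libraries, and MFAP5, at 0, 0.482 and 0 TPM and 4.03, 4.39 and 4.32 TPM. POSTN (periostin), an adhesion protein of injured tissue, went from 0.147, 0.917 and 0.114 TPM to 5.98, 4.99 and 5.7 TPM. The membrane protease MMP14 and the metalloproteinase inhibitor TIMP1 both rose, MMP14 from 219 ± 19 to 587 ± 34.2 TPM and TIMP1 from 505 ± 29.3 to 1175 ± 85.5 TPM. Of 9 fibroblast markers 5 were tested and 4 called higher (FAP, LUM, PDGFRB and COL1A1), and 5 after median-ratio scaling. Of the 4 that were not tested, DCN was listed at 0 in the 3 control libraries and at 1.94, 1.28 and 0.703 TPM in the aggregation libraries, and COL3A1 was at 0.103, 0.0378 and 0.0724 TPM and 1.15, 0.902 and 1.53 TPM. Their summed level over the 9 was 240.4 to 243.0 TPM in control and 454.5 to 540.4 TPM in aggregation libraries, and THY1 did not pass 0.127 TPM and PDGFRA did not pass 0.311 TPM in any library. The part of other cells in the matrix and cytokine rises was not tested. Markers of blood vessels, immune cells, epithelium and neurons gave 0 called genes of 9 tested, and 1 after median-ratio scaling.

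The immediate early list had 4 of 19 tested members called higher (21.1%) and 1 lower (5.26%), where all tested genes gave 3.03% and 7.79%. ATF3, a stress-induced factor, was at 2.91, 2.6 and 2.73 TPM in control and 20.5, 19.6 and 15.6 TPM in aggregation libraries, and IER3 at 36, 33.9 and 35.9 TPM and 84, 80.3 and 77.6 TPM. NR4A1, an orphan nuclear receptor, was at 5.05, 3.81 and 5.9 TPM and 0.641, 1.25 and 1.33 TPM, the reverse direction. DUSP1, a phosphatase that switches off MAP kinases, rose from 27 ± 1.75 to 62.7 ± 1.09 TPM, and DUSP6, the phosphatase of ERK, from 1.5 ± 0.45 to 8.02 ± 1.8 TPM. Among stress genes TRIB3 and ATF3, both known as targets of the amino acid response, thus moved in opposite directions.

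Of 14 tested aldehyde dehydrogenases 1 was called higher (7.14%) and 3 lower (21.4%), where all tested genes gave 3.03% and 7.79%. All 4 were still called under every alternative in which they were tested. ALDH1A3, a retinaldehyde dehydrogenase that makes retinoic acid and a known marker of mesenchymal glioma, was at 0.891, 1.53 and 0.473 TPM in control and 9.4, 8.66 and 7.85 TPM in aggregation libraries. ALDH1A1, which carries out the same reaction, was at 1.97, 3.59 and 1.77 TPM and 0.386, 0.346 and 0.137 TPM. No aggregation library of ALDH1A1 reached 1 TPM, so it passed the filter only through control libraries. The mitochondrial ALDH2 was at 12, 41.9 and 17.4 TPM and 4.66, 4.08 and 4.57 TPM, with control library 2 the highest, and the folate enzyme ALDH1L1 fell from 22.4 ± 2.15 to 4.31 ± 0.256 TPM (SD, n = 3). In all 4 genes the groups were separate. Other genes of retinoic acid handling were looked up after these values were seen, so the next counts are a description only. Of 17 tested genes of that kind, ALDH1A3 and ALDH1A1 included, 4 were called higher and 2 lower, and 5 and 2 after median-ratio scaling. CYP26B1, which breaks down retinoic acid, was at 0.0449, 0 and 0 TPM in control and 4.92, 5.17 and 4.89 TPM in aggregation libraries. It was the 1 rise with no control library at 1 TPM, and for the 2 falls no aggregation library reached 1 TPM. CRABP2, which carries retinoic acid to the nucleus, was at 34, 24 and 31 TPM and 71.3, 77.7 and 67.6 TPM, and DHRS3, which reduces retinaldehyde, at 1.26, 0.987 and 1.36 TPM and 5.3, 5.1 and 5.66 TPM. The receptors RARA, RARG, RXRA and RXRB were tested and not called, with log2 fold changes between -0.09 for RARG and 0.24 for RXRB.

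Of 20 tested ion channel genes 1 was called higher (5%) and 5 lower (25%), where all tested genes gave 3.03% and 7.79%. CLIC3, a chloride intracellular channel protein, was at 14.6, 13.4 and 11.2 TPM in control and 0.676, 0.701 and 1.1 TPM in aggregation libraries. The modulatory potassium channel subunit KCNS3 fell from 43.8 ± 4.19 to 15.8 ± 1.97 TPM and the calcium-activated potassium channel KCNMA1 from 83.6 ± 3.34 to 38.6 ± 3.86 TPM, while KCNE4, an inhibitory potassium channel subunit, rose from 2.32 ± 0.508 to 8.1 ± 0.852 TPM. After median-ratio scaling 4 of the 5 falls were called, without KCNMA1, and 2 rises.

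Guidance and adhesion genes moved in both directions. Of 27 tested axon guidance genes 5 rose (18.5%) and 5 fell (18.5%), where all tested genes gave 3.03% and 7.79%. After median-ratio scaling 6 rose and 5 fell. EPHA2, an ephrin receptor, was at 26.1, 20.9 and 22.4 TPM in control and 4.61, 3.92 and 3.89 TPM in aggregation libraries, and EPHB4 at 4.23, 3.54 and 4.28 TPM and 0.277, 0.192 and 0.119 TPM. No aggregation library of EPHB4 reached 1 TPM, so it passed the filter only through control libraries. Rises were seen for PLXNB2, a semaphorin receptor, from 50.5 ± 7.82 to 132 ± 12.2 TPM, and for the netrin receptor UNC5B, from 3.13 ± 0.0355 to 12.5 ± 0.573 TPM. PLXNB1, a related semaphorin receptor on chromosome 3, fell from 8.88 ± 1.38 to 1.68 ± 0.419 TPM. Of 16 tested adhesion genes 2 were called higher and 4 lower (2 and 3 after median-ratio scaling), all of them immunoglobulin or neural adhesion proteins, and 0 of 8 tested cadherins and protocadherins were called. For the 2 rises no control library reached 1 TPM, so they passed the filter only through aggregation libraries and had to differ. NCAM1 was at 15, 17.3 and 16.6 TPM in control and 5.22, 3.02 and 4.16 TPM in aggregation libraries, and MCAM at 116, 123 and 115 TPM and 54.8, 39.4 and 42.6 TPM. NCAM1, MCAM and JAM3, 3 of the 4 falls, lie on the long arm of chromosome 11, where the 50 nearest tested genes had medians of -0.56 to -0.57 against all genes, and the fourth, ALCAM, lies on chromosome 3 (-0.48).

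Of 18 tested receptors for peptides, lipids and nucleotides 3 were called higher (16.7%) and 2 lower (11.1%), and 4 and 2 after median-ratio scaling. Of 9 RGS proteins, arrestins and related regulators 1 was called higher (11.1%) and 2 lower (22.2%), and 1 and 1 after that scaling. The shares to set beside the lists of this paragraph are 3.03% higher and 7.79% lower over all tested genes. BDKRB2, the bradykinin B2 receptor, was at 0.134, 0.206 and 0.308 TPM in control and 3.26, 2.65 and 2.82 TPM in aggregation libraries, and ACKR3, a scavenging chemokine receptor, at 1.57, 0.944 and 1.15 TPM and 12.2, 10.6 and 10.9 TPM. For BDKRB2 no control library reached 1 TPM, and for 1 of the 2 receptor falls no aggregation library did. These genes passed the filter through 1 group. ADORA1, an adenosine receptor, fell from 46.7 ± 12.3 to 16.5 ± 4.84 TPM and the kinase GRK5, which desensitises such receptors, from 26.6 ± 1.72 to 8.88 ± 0.674 TPM. Of 37 tested genes of TGF-beta and BMP signalling 3 were called higher (8.11%) and 1 lower (2.70%), and 4 and 1 after median-ratio scaling. The ligand BMP7 was at 0.204, 0 and 0 TPM in control and 6.01, 7.74 and 6.53 TPM in aggregation libraries, and FST (follistatin), which binds activins and BMPs, at 1.68, 2.25 and 1.3 TPM and 19.4, 18.3 and 17.7 TPM. TGFB3, another ligand, rose from 3.92 ± 0.546 to 16 ± 0.93 TPM, and SMAD9, a signal carrier of the BMP branch, fell from 3.38 ± 1.19 to 0.643 ± 0.0931 TPM. For BMP7 no control library reached 1 TPM, and for SMAD9 no aggregation library did, so each passed the filter through 1 group.

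Of 17 tested YAP targets and regulators 1 was called higher and 4 lower, but after median-ratio scaling 0 were called lower. AXL, a receptor tyrosine kinase, was at 482, 434 and 444 TPM in control and 218, 202 and 218 TPM in aggregation libraries, with a log2 fold change of -1.09 ± 0.069 as deposited and -0.81 after that scaling. Of 26 tested chromatin genes 6 were called lower and 0 higher (5 and 0 after median-ratio scaling), and 5 of the 12 of the nuclear lamina and HMG group were among them (4 after it). LBR, the lamin B receptor, had a log2 fold change of -2.74 ± 0.27 (adjusted p = 0.000459, limma). SUV39H1, a histone H3 lysine 9 methyltransferase, was at 47.9, 40.6 and 37.4 TPM in control and 13.7, 11.6 and 13 TPM in aggregation libraries. LMNB1, a lamin known to fall in senescent cells, had -0.92 ± 0.14 (adjusted p = 0.00256), under the size required for a call. DNMT1, the maintenance DNA methyltransferase, had -0.29 ± 0.093.

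The other 43 lists had fewer than 3 called members in 1 direction or less than 20% of those tested, and 5 of them had 0 called. The autophagy list (21 tested), the cholesterol list (26), the prostanoid list (8), the cancer-testis list (4) and the mitochondrially encoded mRNAs (13) were these 5, and after median-ratio scaling the cholesterol list had 1 rise and the mRNAs 4. The list of glycolysis and other hypoxia-responsive genes had 3 rises (9.09%) and 0 falls of 33 tested, and 8 rises after median-ratio scaling. Rises were 3.03% of all tested genes, and 4.95% after that scaling. Glucose transport and glycolysis enzymes gave 1 rise of 19 tested (3 after that scaling). The other hypoxia-responsive genes gave 2 of 14 (5 after it). HLA-B, a polymorphic gene with close paralogs that presents peptides to T cells, was the 1 gene called of 12 tested antigen presentation genes, at 172, 198 and 119.7 TPM in control and 704, 742 and 701 TPM in aggregation libraries. Among antioxidant genes SOD2, of mitochondria, rose from 88.5 ± 27 to 359 ± 13.5 TPM, and PRDX2, a cytosolic peroxiredoxin, fell from 39 ± 3.44 to 2.47 ± 0.32 TPM. The lysosomal proteases CTSL and CTSB rose, CTSL from 185 ± 5.48 to 548 ± 14.9 TPM and CTSB from 914 ± 62.2 to 2015 ± 69.8 TPM, while 2 lysosomal glycosidases, GLB1 and FUCA1, fell. GLB1, on chromosome 3, was not called after median-ratio scaling (-0.82) or relative to its neighbours (-0.32), whereas FUCA1 was called after that scaling (-1.22). Of 48 tested genes of the cytosolic ribosome list 3 were called lower and 0 higher, and all 3 lie on chromosome 3: RPL39L, RPL15 and RPL22L1. After median-ratio scaling RPL39L was called, and RPL15 (-0.87) and RPL22L1 (-0.86) were not. RPL15, an essential subunit, was at 1450.5, 1533 and 1510.4 TPM in control and 695, 631 and 696 TPM in aggregation libraries. Single members of complexes whose other listed genes were not called also lay in the blocks described next. Among them were PSMD2 of the proteasome (-1.16) and MCM2 of the MCM ring (-1.14), both on chromosome 3 and not called after median-ratio scaling. GINS2, also of the replication list, was called lower on chromosome 16 (-1.10) and not after that scaling.

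By chromosome the changes were uneven, and the chromosomes and blocks below were picked from these values, so they are a description with no test. On chromosome 3, 213 of 769 tested genes were called lower (27.7%) and 10 higher, and the median was -0.52 against all genes. On the X chromosome 83 of 457 were called lower (18.2%) and 5 higher, with a median of -0.44. Chromosome 20 had 67 of 357 called lower (18.8%) and a median of -0.30. Chromosomes 3 and X together held 296 of the 1078 lower calls. On chromosomes 6, 8, 9 and 22 the medians were 0.18 to 0.20 above all genes. Against the control mean and each library's own median, chromosome 3 lay at -0.51, -0.51 and -0.50 in the 3 aggregation libraries and at -0.08, 0.08 and -0.01 in the 3 control libraries. The X chromosome lay at -0.43, -0.44 and -0.44 in aggregation and between -0.03 and 0.04 in control libraries. The shift was thus shared by the 3 aggregation libraries and larger than the spread between controls. With 1 library left out at a time the chromosome 3 median was between -0.55 and -0.48, and after median-ratio scaling it was -0.50. Chromosome 4, with a median of -0.27, rested more on control library 2, which lay at 0.21 there, and without it the median was -0.18. Over all 30530 genes with no filter on low values the chromosome 3 median was -0.19.

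**Figure D4:**
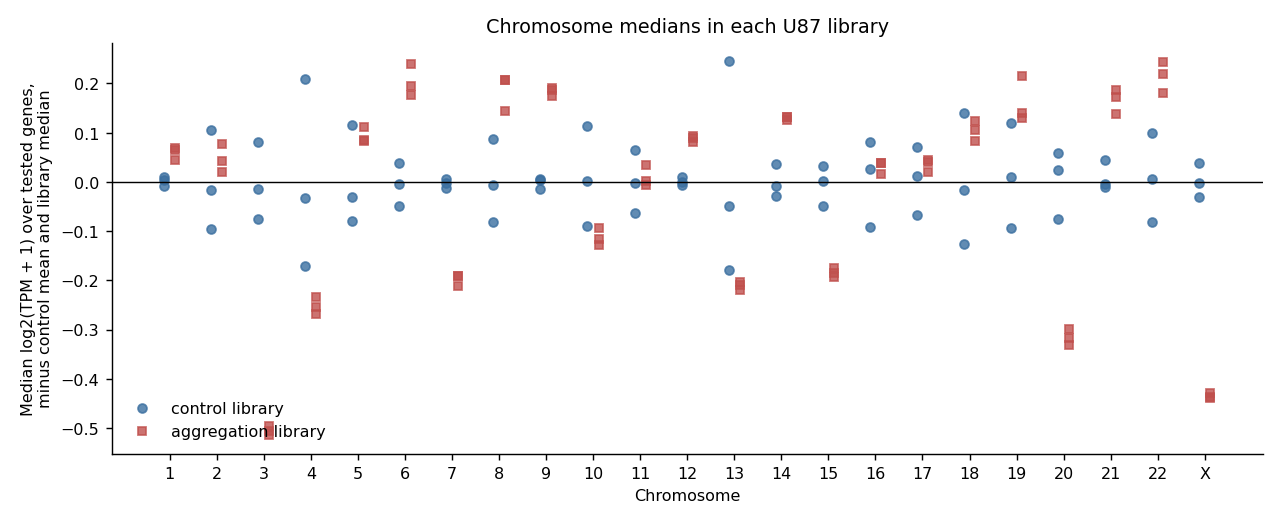
Median of log2(TPM + 1) over the tested genes of each chromosome in each library, minus the mean of the control libraries and the library's median over all tested genes. Circles are control and squares aggregation libraries. The 3 aggregation libraries lie near -0.50 on chromosome 3 and near -0.44 on the X chromosome, below all control libraries.

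A running median over 51 tested genes in chromosomal order showed that several shifts covered part of a chromosome. Stretches in which it was at or below -0.4 against all genes for 20 or more genes lay on chromosomes 1, 3, 4, 7, 11, 13, 17, 20 and X, on the GRCh38 positions of GENCODE release 29. The block chr3:9902612-58627610 held 309 tested genes, of which 104 were called lower and 0 higher, and chr3:121494110-186570543 held 242, with 74 lower and 3 higher. On the long arm of chromosome 11, chr11:108222484-126262986 held 105 tested genes with 36 lower and 1 higher. On chromosome 1, chr1:224356850-231355023 held 50 tested genes with 17 lower and 0 higher, among them PARP1, a poly(ADP-ribose) polymerase of single-strand break repair, at 202, 216 and 236 TPM in control and 79.4, 63.3 and 74.8 TPM in aggregation libraries. On chromosome 20, chr20:3045945-25298014 held 72 with 18 lower and 1 higher. Stretches at or above 0.4 lay on chromosomes 2, 6 and 9. The block chr2:219176225-232583644 held 65 tested genes with 12 higher and 1 lower, and SCG2, SERPINE2, EPHA4 and KCNE4 lie in it. The block chr6:26196840-29995314 held 49 with 6 higher and 0 lower and includes histone genes. DNA copy number was not measured in these libraries, and what the blocks rest on was not tested.

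**Figure D5:**
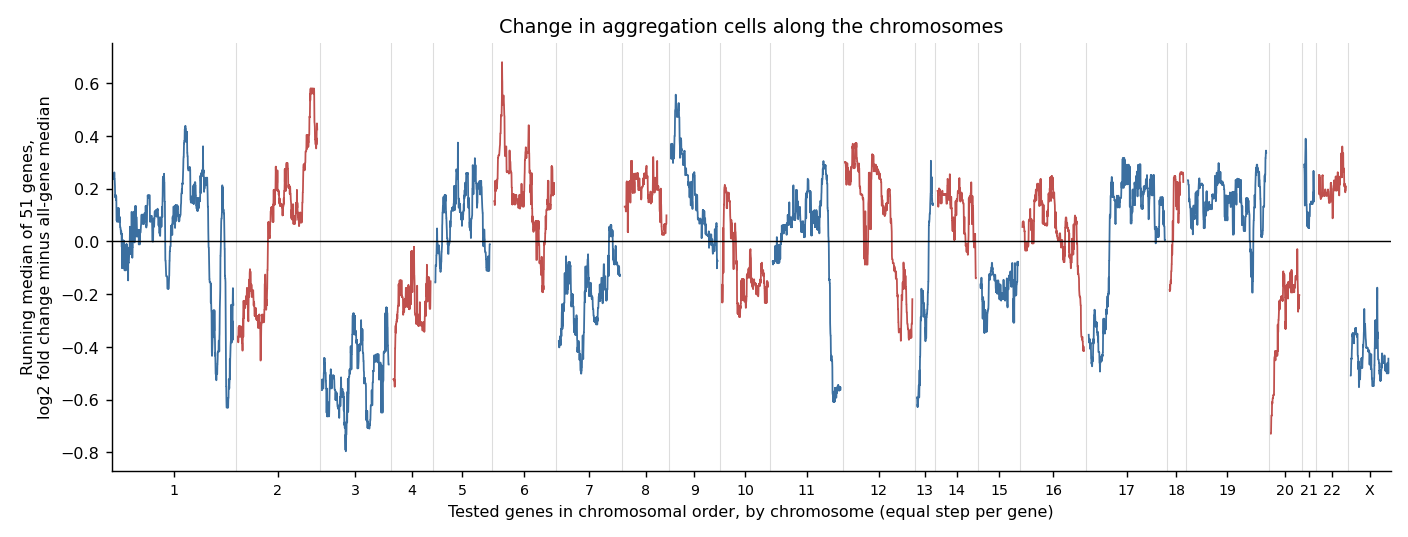
Running median over 51 tested genes of the log2 fold change (aggregation minus control) relative to the all-gene median, along each chromosome in gene order, with 1 equal step per gene. Colours alternate between chromosomes. The curve stays below 0 over all of chromosomes 3 and X, and drops below -0.5 over part of chromosomes 1, 4, 11, 13 and 20.

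Falls and rises differed in how their neighbours moved. For the 1077 genes called lower on chromosomes 1 to 22 and X, the 50 nearest tested genes, without the gene itself, had a median of -0.30 against all genes, and for 589 of them (54.7%) it was -0.25 or less. Over all 13785 tested genes on these chromosomes 2908 (21.1%) had such neighbours. For the 408 genes called higher 44 (10.8%) had them. On the other side, 80 of these 408 rises (19.6%) had neighbours with a median over 0.25 against all genes. The same held for 1511 of the 13785 tested genes (10.96%) and for 30 of the 1077 falls (2.79%). Rises thus also lay among raised neighbours more often than tested genes did, though most did not. When the all-gene median alone was subtracted, 506 of the 1077 falls and all 408 rises were still beyond 1 on the log2 scale. When the neighbours' median, which contains the all-gene median, was subtracted instead, 317 and 391 were. Counted in this second way over the same 13785 genes, 552 were called higher (4.00%) and 328 lower (2.38%). Of list members outside mitosis, 59 of 91 lower calls (64.8%) had neighbours at -0.25 or less, against 7 of 21 (33.3%) in the mitosis list. Relative to their neighbours 10 mitosis genes were called lower, against 15 after median-ratio scaling. Of the chromatin falls LBR alone was called in this way, against 5 after median-ratio scaling. The histone variants had 0 such falls against 1, and the adhesion list 0 against 3.

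Mitochondrial transcripts rose unevenly. Of 37 tested genes of the mitochondrial genome 11 were called higher and 0 lower, and these were 10 of 22 tRNA genes and the large ribosomal RNA, while 0 of 13 mRNAs were called. All 13 mRNAs rose with an adjusted p under 0.05 (limma), by less than the size required for a call. Their median was 0.86 above all genes. MT-RNR2, the large ribosomal RNA, was at 1305, 2070.0 and 1465 TPM in control and 5136, 5534 and 5506 TPM in aggregation libraries. The tRNA MT-TV, which lies between the 2 ribosomal RNA genes, was at 19, 20.4 and 16.8 TPM and 139, 162 and 168 TPM. MT-CO1, an mRNA for cytochrome oxidase, had a log2 fold change of 0.40 ± 0.10 (adjusted p = 0.0211, limma). A mature tRNA is shorter than a usual library fragment, and its reads cannot be told apart here from those of longer precursors or flanking RNAs. After median-ratio scaling 20 of the 37 were called higher, 4 of the mRNAs among them.

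A last cluster, singled out after its values were seen, was that of the chorionic gonadotropin beta genes on chromosome 19. CGB8, CGB5, CGB2, CGB3 and CGB1 were all called lower, from 105, 98.3 and 100.4 TPM in control to 15.8, 16.5 and 14.9 TPM in aggregation libraries for CGB8 and from 38.2 ± 1.15 to 6.53 ± 0.992 TPM for CGB5. The 5 genes are near-identical copies, so reads could have been shared among them and they do not count as 5 separate changes. The genes around CGB8 had a median of -0.03 against all genes.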

How the data were processed

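U87 mRNA-seq of 3 control and 3 aggregation libraries was analysed, with groups and replicate numbers from the sample labels. The authors deposited TPM values per gene, in a table of 58174 Ensembl identifiers. The submitters' processing notes name FastQC 0.11.2, Trimmomatic 0.36, HISAT2 2.0, bedtools 2.26.0 and the build GRCh38. The gene annotation, the tool that made the TPM and the strand setting are not given in the sources used here. GENCODE release 29 on GRCh38 holds 57836 of the identifiers and gave symbols and positions. Genes at 1 TPM or more in 3 or more libraries entered the fit, made with limma 3.58.1 (R 4.3.3) on log2(TPM + 1), with lmFit and eBayes with a trend. A call needed an adjusted p under 0.05 (Benjamini-Hochberg) and a log2 fold change of 1 or more in either direction. The fit was tested on simulated data before use. With 3 libraries on each side the smallest two-sided p of an exact permutation test is 0.1, so none is given. Tables and figures used Python 3.11.15, pandas 2.3.3 and matplotlib 3.10.9.

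The lists, 57 in all with 1523 genes of which 1189 were tested, and the comparison itself were chosen with earlier results of these data known. Lists are described by counts and medians, in detail where at least 3 members and 20% of those tested were called in 1 direction. Genes were named by rule: the 20 largest called rises and falls at 10 TPM or more with groups apart, up to 3 called members of each list in each direction, genes listed near 0 in one group, and uncalled members where their role needed it. The chromosome blocks, the neighbour medians (25 tested genes on each side), the retinoic acid genes, the mitochondrial tRNAs and the chorionic gonadotropin genes, and other called members of a list named beyond those 3, were chosen after the values were seen. Alternatives were median-ratio scaling, TPM recomputed without mitochondrially encoded genes, a pseudocount of 0.1, all genes without a filter, genes with a mean of 10 TPM or more, eBayes without trend, a block for the replicate number, and each library left out. A few genes are not reported here. U118 libraries and the other assays of the study were not used here.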

Additional observations from a re-analysis of the deposited data

How the results depend on the processing

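With median-ratio scaling 685 genes were called higher and 526 lower, a mean of at least 10 TPM gave 175 and 630 among 7616 genes, and the change relative to chromosomal neighbours, an alternative chosen after seeing the data, gave 552 and 328. The second tests fewer genes by construction. The third subtracts the all-gene median along with the neighbours' own change. Leaving out 1 library at a time gave 404 to 482 higher genes and 941 (without control library 2) to 1416 (without control library 1) lower genes. The replicate block gave 414 and 1040. Same-numbered libraries did not deviate together, with correlations of 0.0113, -0.0671 and -0.0399. Those between libraries of different numbers ran from -0.0579 to 0.0772. With so few libraries this cannot exclude a pairing by culture or batch. The remaining alternatives stayed within 1.5 times of both counts: 551 and 831 without mitochondrially encoded genes, 598 and 1530 with a pseudocount of 0.1, 412 and 986 with no filter, and 419 and 1064 without trend. Of 188 called genes among those named by the rule or added to it, 131 were called under every alternative in which they were tested, and none changed direction. Of these genes 29 lost their call under median-ratio scaling, all of them falls, and 47 relative to neighbours.

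Depth is unknown, so no detection limit can be given for a gene listed at 0, and fold changes on the log2(TPM + 1) scale understate those of low genes. Whether the 3 libraries of a group share a culture is not stated. The TMZ exposure, the collection of aggregations and the time in culture move together and cannot be told apart.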

Other observations

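Further called genes belonged to lists with few changes. FGF1, a mitogen for many cell types, was at 16.7, 22.1 and 16.5 TPM in control and 2.6, 3.53 and 3.39 TPM in aggregation libraries, with a log2 fold change of -2.22 ± 0.17 (adjusted p = 0.000198, limma), and 2 of 28 tested growth factor and receptor tyrosine kinase genes were called higher and 3 lower (2 and 1 after median-ratio scaling), where 3.03% and 7.79% of all tested genes were called higher and lower. NOTCH4, a Notch receptor, fell from 26.5 ± 2.89 to 6.68 ± 0.986 TPM (mean ± SD, n = 3 each), the 1 call among 13 tested Notch genes, and FZD2, a Wnt receptor, fell from 52 ± 0.545 to 17.6 ± 0.84 TPM, the 1 call among 20 tested Wnt genes (2 rises were added by median-ratio scaling). Of 21 tested HOX genes HOXC10 and HOXC8 were called, both lower, HOXC10 from 5.85 ± 0.255 to 1.24 ± 0.137 TPM. The imprinted genes moved in both directions, with SNRPN, paternally expressed, at 29.3 ± 1.35 TPM in control and 121 ± 2.9 TPM in aggregation libraries (SD, n = 3), and PEG10, a gene of retrotransposon origin, at 14.8, 18.8 and 16.3 TPM and 3.59, 2.91 and 3.31 TPM. The peptide hormone genes NMU and NMB both fell, NMB from 18.1 ± 1.04 to 4.23 ± 0.78 TPM, while SCG2, a granule protein, rose. For NMU no aggregation library reached 1 TPM, so it passed the filter only through control libraries. The fatty acid transporter CD36 was at 0, 0.174 and 0.0676 TPM in control and 2.18, 1.98 and 2.39 TPM in aggregation libraries. No control library of CD36 reached 1 TPM, so it passed the filter only through aggregation libraries. SAT1, which acetylates polyamines, rose from 55.7 ± 2.73 to 148 ± 18.6 TPM on the X chromosome, where the 50 nearest tested genes had a median of -0.35 against all genes.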
